A study of Mus musculus with 6 samples.

Results

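Signatures of 20 bases that hold ATTTA, the core of AU-rich elements, were examined in liver and in the cell line BLK.CL4. Members were taken by sequence: a signature had to hold ATTTA on the read strand within bases 5 to 20 and to have a total count of at least 10 over all libraries and runs. Of 31075 signatures with that total count, 196 held the core (0.631%). At any total count the core was found in 461 of 69349 signatures. The other 9 pentamers made of 2 A and 3 T served as the background, and at least 1 of them was held by 1269 of the 31075 signatures.

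The libraries were made by massively parallel signature sequencing, in which cDNA is cut with DpnII at GATC, the bases next to the cut nearest the 3' end are cloned, and the clones are counted on microbeads. There were 3 libraries of BLK.CL4, a fibroblast line, and 3 of mouse liver, a tissue of several cell types. All came from total RNA of strain C57BL6, and the labels used here name no treatment or age. Library totals were 1724799 to 2440849 counts, from 2 T runs and 2 TH runs each, the run types that the column headings name. Whether the 3 libraries per group are separate cultures or animals is not given in the labels, so each p-value reflects library-to-library spread that may be technical. A level in liver cannot tell fewer cells of a type from less RNA per cell. Signatures were not matched to genes, so the tissue labels were not checked against marker genes.

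AU-rich elements lie in the 3' untranslated regions of many short-lived mRNAs, among them those of cytokines, growth factors and immediate-early transcription factors such as Fos and Myc. The pentamer AUUUA, read as ATTTA in cDNA, is their core. Proteins that bind them either hasten deadenylation and decay, as tristetraprolin (Zfp36) does, or stabilise the message, as HuR (Elavl1) does. Overlapping copies and the nonamer TTATTTATT bind such proteins better than a lone pentamer, which also occurs by chance in AT-rich sequence. A signature with the core is therefore not shown to be part of a working element.

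The signatures below carry the results that follow. They are written from the GATC cut site in the 5' to 3' direction, with the core in capitals. S1 to S5 were among the most abundant. Of those that passed the test of levels without overlap, S6 had the largest fitted fold change toward liver, and S7 to S9 had the largest toward the cell line. S10 to S12 hold overlapping cores or the nonamer.
S1: gatctgcttcaataATTTAa
S2: gatcttccctcATTTAacct
S3: gatcATTTAtggaggttctt
S4: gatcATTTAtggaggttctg
S5: gatctgttcttgctcATTTA
S6: gatccagcATTTAaatttct
S7: gatcctgttttggaATTTAa
S8: gatctcacaggttggATTTA
S9: gatccagaaagaacgATTTA
S10: gatcaacctcATTTATTTAt
S11: gatccaaaacttATTTAttt
S12: gatccatctgcATTTATTTA

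Core signatures made up a similar small share of the distinct signatures in liver and in BLK.CL4. In BLK.CL4 replicates 1, 2 and 3 the core was held by 80 of 13586, 116 of 18540 and 94 of 14481 listed signatures, or 0.589%, 0.626% and 0.649%. In the liver replicates it was held by 42 of 6806, 61 of 10887 and 75 of 10809, or 0.617%, 0.560% and 0.694%. The means were 0.621% ± 0.0304 and 0.624% ± 0.0670 (SD, n = 3 each), and the groups overlapped. The liver libraries listed fewer core signatures and fewer signatures of every kind. Of the 196 members, 91 were counted only in BLK.CL4, 35 only in liver and 70 in both. These are 46.4%, 17.9% and 35.7%, against 46.8%, 19% and 34.2% of all 31075 signatures.

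Among the pentamers of the same base content the core was neither rare nor frequent. It came after AATTT (361 signatures), ATATT (211), TTTAA (208) and TAATT (206) and ahead of TTAAT (150), ATTAT (147), TATTA (105), TTATA (93) and TATAT (67). Of these 10 words, 3 contain no 4-base palindrome, namely the core, ATTAT and TATTA, and the core was the most frequent of these. Its 198 copies compare with 213 expected from the frequencies of ATTT, TTTA and TTT in the same window, a ratio of 0.928. For the other words this ratio ran from 0.862 (TATTA) to 1.34 (TAATT). The ratio of the core was 0.952 over signatures listed in BLK.CL4 and 0.942 over those listed in liver. The reverse complement TAAAT, which has a different base content, was held by 225 signatures (0.724%), and 4 of the 196 members held both.

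A single signature decided the share of counts. Core signatures held 0.541%, 0.960% and 0.444% of the counts of BLK.CL4 replicates 1, 2 and 3, and 0.40%, 0.819% and 0.413% in liver, with means of 0.648% ± 0.274 and 0.544% ± 0.239 (SD, n = 3 each). The libraries of a group differed by more than the group means, and the groups overlapped. The means of the other 9 words ran from 0.0811% to 1.11% in BLK.CL4 and from 0.0244% to 2.17% in liver. S1 alone supplied 56.5% of all core counts, and 82.1% in liver replicate 2.

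Without S1 the groups no longer overlapped, but which was higher depended on the scaling. Core signatures then held 0.303%, 0.364% and 0.295% of library totals in BLK.CL4 and 0.180%, 0.147% and 0.250% in liver, so that BLK.CL4 was higher. The TMM factors of edgeR, which rescale totals for differences in composition, were 1.61 to 1.72 in BLK.CL4 and 0.475 to 0.743 in liver. As shares of TMM-scaled totals the values were 0.176%, 0.226% and 0.174% in BLK.CL4 and 0.298%, 0.309% and 0.337% in liver, so that liver was higher. Of the other 9 words, each without its own most abundant signature, 3 were higher in BLK.CL4 without overlap by library totals, 1 was higher in liver and 5 overlapped. By TMM-scaled totals 4 were higher in liver and 5 overlapped. Only TTTAA went from higher in BLK.CL4 to higher in liver, as the core did. For TTTAA, as for AATTT and TAATT, the signature left out was S1 itself. The scaling moved all signatures alike: summed without the most abundant of the series, they held a mean of 98.5% of library totals in BLK.CL4 and 82.9% in liver, against 58.8% and 141% of TMM-scaled totals. With the most abundant signature kept, the means by library totals were 98.6% and 99.4%, so the first difference came from its removal. The second follows from the factors, which scale every signature of a library alike. The sum is thus fixed by arithmetic and is no separate result.

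S1 stood at 2385, 5966 and 1483 CPM (counts per 1000000) in BLK.CL4 replicates 1, 2 and 3 and at 2204, 6728 and 1626 CPM in liver (the log2 fold changes below are liver over BLK.CL4). The ranges of the groups nearly coincided. Its fitted log2 fold change was 1.74 (standard error, SE, 0.86, edgeR adjusted p = 0.155). By library totals alone it was 0.10 (adjusted p = 0.928), and with no filter on low counts it was 1.55 and passed (adjusted p = 0.0429). All of its 41246 counts came from T runs, 19991 in BLK.CL4 and 21255 in liver, and it had a count of 0 in each of the TH runs. Its level thus rests on 1 run type.

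The share of counts went with the run type through S1. In T runs core signatures held 0.790%, 1.53% and 0.584% of the counts in BLK.CL4 and 0.639%, 1.64% and 0.551% in liver. In TH runs the shares were 0.343%, 0.308% and 0.309% in BLK.CL4 and 0.215%, 0.151% and 0.302% in liver. Without S1 the T runs gave 0.252%, 0.412% and 0.281% in BLK.CL4 and 0.134%, 0.141% and 0.185% in liver, values of the same size as those of TH runs.

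Most core signatures were far less abundant than S1. The median total count of members was 36.5, against 37 for all 31075 signatures and 36 for those holding any of the other 9 words. Where listed, the median level was 5.47 CPM in BLK.CL4 (161 signatures) and 3.96 CPM in liver (105 signatures), against 5.47 and 4.23 CPM over all signatures. Means of at least 100 CPM were reached by 10 members in BLK.CL4 and 5 in liver. Counts in all 6 libraries were found for 9 members (4.59%, against 7.36% of all signatures). For signatures holding any of the other 9 words this share was 4.73%, and by word it ran from 0.667% (TTAAT) to 7.20% (AATTT). The low share is thus not particular to the core. Another 83 members were counted in 1 library.

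S2 was counted evenly in both run types (1707 T and 1445 TH counts). It stood at 129, 218 and 3.20 CPM in the cell line and at 548, 403 and 288 CPM in liver, so that all liver libraries lay above those of the cell line. Its fitted log2 fold change of 3.30 (SE 1.22) did not pass (edgeR adjusted p = 0.0677). It passed with DESeq2 (adjusted p = 0.0340), with no filter on low counts (edgeR adjusted p = 0.0220) and without BLK.CL4 replicate 3 (log2 fold change 2.74, edgeR adjusted p = 0.0341). In the other 12 of 15 alternatives it did not pass. By library totals its log2 fold change was 1.80 (edgeR adjusted p = 0.223).

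S3 and S4 differ only at their last base, by the substitution T20G counted from 1 at the first base. S3 stood at 473, 96.5 and 393 CPM in the cell line and at 62.6, 50.4 and 194 CPM in liver, and the groups overlapped. S4 stood at 227, 292 and 146 CPM in the cell line and at 59.7, 0 and 53.7 CPM in liver, without overlap. Neither passed (fitted log2 fold changes -0.26 and -1.19, edgeR adjusted p = 0.835 and 0.557). Both carry the core directly after the cut site, and neither had a T count.

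S5 ends with the core. It stood at 182, 157 and 336 CPM in the cell line, and liver replicates 1, 2 and 3 were spread widely at 5.22, 50.4 and 319 CPM. Its fitted log2 fold change of 0.43 (SE 1.12, edgeR adjusted p = 0.810) turned to -0.84 by library totals and to -1.23 without liver replicate 3. A further signature, gatctgcttatcccATTTAg, was present in all libraries at lower levels, 13.2, 41.9 and 38.9 CPM in the cell line and 22.0, 50.4 and 58.2 CPM in liver, and did not pass (fitted log2 fold change 1.85, edgeR adjusted p = 0.152). By mean CPM it was 1.39-fold higher in liver. Over all fits its log2 fold change ran from 0.445 to 2.17 (edgeR or DESeq2 adjusted p 0.0733 to 0.729).

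Levels were compared in a test run on the 9115 signatures that reached 10 CPM in 2 libraries or more. Of the 196 members 60 entered it, and the other 136 did not reach that level in enough libraries, 83 of them being counted in 1 library only. Of the 60, 16 passed at an edgeR adjusted p under 0.05. Of these, 7 were higher in liver (11.7% of 60, against 14.9% of all tested signatures) and 9 were higher in BLK.CL4 (15%, against 15.1%). In this fit core signatures passed at about the rate of all signatures, of which 2732 passed. Shares passing for the other 9 words ran from 10.0% (TTATA, 20 tested) to 41.7% (TATAT, 12 tested). The median fitted log2 fold change was -0.36 over the 60 and -0.60 over all tested. The number passing fell to 9 of 52 without BLK.CL4 replicate 1 (17.3%, against 24.2% of all signatures tested in that fit). It fell to 9 of 53 without liver replicate 1 (17.0%, against 25.8%) and to 7 of 51 without liver replicate 3 (13.7%, against 22.3%). Of the 16 calls, those of S6, S7 and S8 held in all 6 fits that left out a library, where a signature that was no longer tested counts as not held.

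S6 was found in liver only, at 350, 62.4 and 445 CPM, and was not counted in any library of the cell line. Against 3 counts per library, the limit that a count of 0 allows (1.47 CPM on average in BLK.CL4), liver was at least 194-fold higher on plain CPM, or at least 497-fold once TMM factors were applied. It passed (fitted log2 fold change 7.68, edgeR adjusted p = 0.00171). All 1815 counts were from TH runs. Such limits cover counting error only.

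The other signatures with the largest differences toward liver were weaker and uneven among the liver libraries. The signature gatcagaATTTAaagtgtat stood at 8.12, 25.4 and 38.1 CPM there and had no count in BLK.CL4, which makes it at least 16.2-fold higher by CPM (edgeR adjusted p = 0.0160). The signature gatcacaccagggtcATTTA stood at 19.7, 3.49 and 18.4 CPM in liver, also with no count in BLK.CL4 (at least 9.42-fold, edgeR adjusted p = 0.0309). It did not pass without BLK.CL4 replicate 1 (edgeR adjusted p = 0.0526) or with no filter on low counts (edgeR adjusted p = 0.0909). Its relative gatcacaccagggtcatttt (A20T, 568 counts) has no core and was also counted in liver only. The signature gatcctactgtggATTTAtt stood at 33.0, 2.99 and 22.5 CPM in liver against 1.59, 0 and 0 CPM (edgeR adjusted p = 0.0470). Its call was lost under 6 of 11 alternatives, among them library totals and the omission of any 1 BLK.CL4 library (adjusted p over all fits 0.000964 to 0.229).

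The signature gatccagaagctccaATTTA passed as higher in liver, at 115, 3.99 and 34.8 CPM against 0, 2.44 and 0 CPM in the cell line (log2 fold change 5.0, SE 2.02, edgeR adjusted p = 0.0362). The call was lost without BLK.CL4 replicate 1 (adjusted p = 0.0827) or replicate 3 (0.0712). Its closest relative is gatccagaagctccaatttt, from which it differs by A20T. That relative has no core and was more abundant, with 3591 counts against 297. It stood at 373, 203 and 668 CPM in liver and at 151, 88.2 and 203 CPM in BLK.CL4. The core form was thus almost missing in a cell line that held the other form in every library. It was also low in liver replicate 2, at 3.99 CPM beside 203 CPM of the relative. All of its 297 counts were from TH runs.

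Toward the cell line, S7 and S8 were the clearest. S7 stood at 152, 175 and 240 CPM in the cell line, with no count in liver. On plain CPM it was at least 127-fold higher in the cell line, or at least 44.0-fold once TMM factors were applied, and it passed (fitted log2 fold change -5.75, edgeR adjusted p = 0.00453). All of its 1171 counts were from T runs. S8 stood at 194, 136 and 135 CPM, also with no count in liver. The same bounds were at least 104-fold and at least 36.0-fold, and it passed (fitted log2 fold change -5.47, edgeR adjusted p = 0.00570). It was counted in both run types, 453 T and 489 TH counts. S8 was the only member that passed in every one of the 16 fits, T runs alone and TH runs alone included.

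S9 stood at 163, 38.5 and 51.2 CPM in BLK.CL4 with no count in liver (fitted log2 fold change -4.60, edgeR adjusted p = 0.0183). The call was lost without BLK.CL4 replicate 1 (adjusted p = 0.0512). A relative without the core, gatccagaaagaacgatttg, differs by A20G and was also nearly restricted to the cell line, at 232, 258 and 151 CPM against 0, 2.49 and 0 CPM in liver. The signatures gatccggATTTAacaactcc (13.8, 54.6 and 46.2 CPM) and gatcccATTTActatttgaa (53.4, 44.4 and 10.1 CPM) had no count in liver (edgeR adjusted p = 0.0403 and 0.0440). The first call was lost without BLK.CL4 replicate 1 and the second without liver replicate 3 (adjusted p = 0.0535 and 0.0530), and both with no filter on low counts. In all, the 9 members higher in BLK.CL4 had no count in liver, and 5 of the 7 higher in liver had no count in BLK.CL4. The same shares over all called signatures were not computed, so this is not shown to be particular to the core.

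Overlapping cores were almost absent, as 194 of the 196 members held a single copy. The other words were also mostly held once, from 361 copies in 361 signatures (AATTT) to 150 copies in 147 signatures (ATTAT). Single copies are thus not particular to the core. Of the members with overlapping cores, S10 was the abundant one. It stood at 241, 179 and 83.6 CPM in the cell line and at 0, 3.99 and 33.2 CPM in liver, without overlap between the groups, and was counted evenly in T and TH runs (560 and 536 counts). Its fitted log2 fold change of -2.36 (SE 1.46) did not pass (edgeR adjusted p = 0.233). S12 had 11 counts, all in BLK.CL4 replicate 3. It differs by a single base from a signature with 321 counts, gatccatctgcATTTAtttg, which was counted in the same library only.

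The nonamer TTATTTATT was held by 1 member, S11, whose 36 counts all came from T runs of liver replicate 3. A core with T on both sides occurred in 9 members, of which 7 were listed in BLK.CL4 and 7 in liver. At any total count there were 28 signatures with T on both sides and 5 with the nonamer. The canonical polyadenylation signal AATAAA was held by 143 signatures, and 1 of them also held the core.

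Members resembled the other AT words in the A and T content around the word. Outside the core itself, A and T made up 54.7% of bases 5 to 20, against 51.0% over all bases of the 31075 signatures and 48.0% to 56.1% for the other words. The base after the core was T in 34.2% of 152 copies, against 26.7% T over all bases 5 to 20. The base before it was C in 37.4% of 187, against 25.7% C, and T in 17.1%, against 26.7% T. The bases beside the other words were not counted. Of the members, 84 also held at least 1 of the other 9 words, mostly AATTT (48) or TTTAA (35), which share bases with the core when an A stands beside it.

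The core, like some of the other words, lay toward the end of the signature and was scarce at 1 place in 4. Of 198 copies, 104 (52.5%) started at bases 13 to 16, where an even spread would give 33.3%, against 42.2% of 1555 copies of the other words. By word this share ran from 32.4% (AATTT) to 54.7% (TATTA), so the core lay within the range. The palindrome-free words TATTA and ATTAT had 54.7% and 51.3%. The last possible start, base 16, held 46 copies (23.2%, against 11.8% of the other words). Starts 6, 10 and 14 held 6, 4 and 7 copies, together 8.59% against 25.6% for the other words. Some other words were as scarce in another class. Starts 7, 11 and 15 held 2.88% of the copies of TTTAA, 5.88% of TATAT and 9.68% of TTATA. In the remaining words the lowest class held 15.1% (TATTA at 5, 9 and 13) or more. These classes were chosen after the positions were seen, and no test is given.

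Many of the cores at the end of a signature depended on the last base. Of the 46 signatures with a core starting at base 16, 19 had a more abundant signature 1 base away, and in 14 of these (30.4% of the 46) the difference was at base 20. Among the 150 members with an earlier core 11 (7.33%) had a more abundant relative that differed at base 20, and among all signatures 9.81%. Members also formed 15 pairs with each other that differ at 1 base, of which 9 differ at base 20 and 2 at base 19. The part of base miscalls or of sequence variants in these pairs was not tested. With only bases 5 to 19 searched, 151 signatures held the core, 44 of them were tested and 9 passed (20.5%, against 2732 of all 9115), 4 higher in liver and 5 in BLK.CL4.

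Where the core started went with the run type in which its signature was counted. Of the 51 members with a core starting at base 7, 11 or 15, 36 (70.6%) had no TH count and 5 (9.80%) no T count. Of the 17 with a start at 6, 10 or 14 the relation was turned, with 3 lacking TH counts and 11 (64.7%) lacking T counts. Starts at 5, 9 or 13 had no T count in 22 of 44 members, and starts at 8, 12 or 16 in 36 of 84. S1 and S7 both start at 15 and had no TH count. The pattern at 7, 11 or 15 was seen in BLK.CL4 (31 of 40 listed members without a TH count there) and in liver (13 of 25).

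The pattern was also seen without palindromes, which go with missing counts of 1 run type in these data. With every signature removed that has a 4-base palindrome starting at 3, 7, 11 or 15, or at 4, 8, 12 or 16, 29 of 44 members with a start at 7, 11 or 15 had no TH count. In these members the tetramer TTTA falls at base 8, 12 or 16. The same tetramer at those bases went with missing TH counts in signatures without the core, where 128 of 179 (71.5%) had none, against 18.2% of 25096 without it there. For T runs, TTTA at base 7, 11 or 15 went with a missing T count in 74 of 123 signatures without the core (60.2%, against 24.4%). The same relation was thus seen outside the core, and the starts were chosen after the data were seen.

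In total 74 members (37.8%) had no T count, 64 (32.7%) had no TH count and 58 (29.6%) were counted in both types. Over all 31075 signatures these shares were 28.0%, 23.3% and 48.7%. For the other 9 words the share counted in both types ran from 14.4% (TTTAA) to 42.9% (TATTA). Of the 7 members higher in liver, 5 had no T count. Of the 9 higher in BLK.CL4, 3 had no TH count and 2 no T count. These shares were not computed over all called signatures. Levels of core signatures seen in 1 run type are set by that type, and its part in the calls was examined only by the fits on T runs and on TH runs. In T runs 4 of 41 passed (9.76%, against 17.6% of all signatures tested there), all higher in BLK.CL4, and in TH runs 8 of 49 (16.3%, against 17.3%), 6 of them higher in liver.

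At the count limit, gatcagATTTAccattttgt (6 counts in liver replicate 2 and 4 in replicate 3) and gatcATTTAactggcatttt (5 counts each in BLK.CL4 replicate 3 and liver replicate 3) were just inside with 10 counts. Just outside, with 9 counts, were gatcaaaATTTAaagacaag and gatcaccATTTAcgactgtc, both counted in BLK.CL4 replicate 1 only.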

How the data were processed

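The deposited values are raw bead counts per signature and run, as the file headers say. A conversion to relative abundance that the labels mention was not applied to them. The base caller, filters and genome build are not given in the sources used here. Runs were added up within each library, and a signature missing from a library's list was taken as 0. CPM are counts scaled to library totals. Words were searched in bases 5 to 20 with Python 3.11.15. Levels were compared by the quasi-likelihood test of edgeR (version 4.0.16, R version 4.3.3), two-sided, on every signature reaching 10 CPM in 2 or more libraries, with TMM factors, group alone in the model, prior count 5 and a Benjamini-Hochberg threshold of 0.05. SE were derived from the F statistic at the default prior count. The procedure was tested on simulated data. DESeq2 1.42.0 was an alternative, beside other scalings, filters, windows, run types and the omission of each library. Shares over members carry no test.

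Named are, among members, the 5 highest in each group, the 5 with the largest fold change in each direction among those passing without overlap, the 5 of highest total with 2 cores or with the nonamer, 3 with at least 10 CPM in all libraries that did not pass, and 2 on each side of the count limit. Relatives that differ at 1 base were named after their values were seen. Members and lists were chosen with earlier results of these data known. No transcript sequence was used, so the planned gene and marker lists were not run.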

Additional observations from a re-analysis of the deposited data

How the results depend on the processing

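Shares of distinct signatures in BLK.CL4 and liver, 0.621% and 0.624%, were 0.591% and 0.522% in T runs, 0.375% and 0.330% in bases 5 to 17, and 0.480% and 0.443% in bases 5 to 19 (chosen after seeing the data). They were 0.677% ± 0.0151 and 0.580% ± 0.0335 at 100 counts or more, and 0.531% ± 0.0275 and 0.638% ± 0.0622 in TH runs (SD, n = 3), so that the order of the group means turned between these settings. Shares of counts, 0.648% and 0.544%, were 0.967% and 0.945% for T runs alone, 0.318% and 0.223% for TH runs alone, 0.182% and 0.132% in bases 5 to 17, and 0.321% and 0.192% without the most abundant member. A shorter window has fewer starts, and bases 5 to 17 leave out S1. For the other shifts the cause was not tested. In the main fit 16 core signatures passed (7 higher in liver, 9 in BLK.CL4). At 25 CPM in 3 libraries 4 of 19 tested passed (1 and 3), or 21.1% against 38.1% of all 3716 tested. The number passing was 4 for T runs (0 and 4), 8 for TH runs (2 of them higher in BLK.CL4) and 9 in bases 5 to 19 (4 and 5). The edgeR count of 0 higher in liver in T runs compares with 1 of 41 higher in liver at an unadjusted p under 0.05. Toward BLK.CL4 the 4 that passed compare with 11 at an unadjusted p under 0.05. DESeq2 was not run on T runs. With no filter 15 of 196 passed (10 toward liver, 5 higher in BLK.CL4), against 2.84% of all 69349 signatures, which include those under 10 counts. Leaving out each library gave 7 to 15 passing, 1 to 5 higher in liver and 6 to 10 higher in BLK.CL4, and none of the 16 turned direction in a fit in which it was called. The fold change of S3 ran from -0.97 to 0.0896 over these fits, reversed without BLK.CL4 replicate 1, and was -1.62 by library totals. That of S5 ran from -1.23 (without liver replicate 3) to 1.0, and was -0.84 by library totals. Library totals moved the median over all signatures tested from -0.60 to -1.83 (log2). No paired analysis was possible because the labels carry no replicate numbers, and numbers given in the order of deposit pair nothing. Levels below 1.23 to 1.74 CPM, 3 counts in a library, are not resolved.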
